A study of Arabidopsis thaliana with 24 samples.

Results

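Arabidopsis thaliana seedlings of the lines uap1-2 and uap1-1 were compared after 24 h at 4 °C. Both lines are homozygous T-DNA insertion mutants of UAP1, which the study's title calls a splicing factor, in the Col-0 background that the wild type (WT) shares. The comparison used 8 of the 24 libraries, chosen by their labels: 4 of cold-treated uap1-2 and 4 of cold-treated uap1-1, each from whole seedlings on MS medium. Seedlings were 11 days old when treated and 12 days old when harvested by one label, and 10 days old by another. The study also holds 4 cold-treated WT libraries and 4 untreated control libraries of uap1-2, of uap1-1 and of WT. Replicates are described as independent biological ones, 4 to a group. Neither mutation was checked from the counts, since UAP1 is the name of no entry in the table or the reference annotation, and counts per gene do not measure splicing.

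Splicing factors recognise the ends of introns and help the spliceosome to remove them from the precursor of each messenger RNA. In plants kept in the cold, CBF transcription factors and the early zinc finger factors ZAT10 and ZAT12 are induced within hours. The CBF factors switch on COR genes, whose products protect membranes and proteins from freezing. Lines that carry separate insertions in the same gene are usually studied side by side because a trait that both share is more readily ascribed to the gene. The comparison here asks where the transcripts of the lines differed in the cold.

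Of the 32833 genes in the table, 21428 had enough reads to be tested. Read totals were 23377361, 19289385, 22561862 and 21282127 in the uap1-2 cold libraries, and 19322222, 25501547, 19607689 and 19776430 in the uap1-1 cold libraries. On the second principal component of all 24 libraries, which carried 10.7% of the variance against 65.1% on the first, the uap1-2 cold libraries lay at -12.3, 55.0, 22.5 and 30.6 and the uap1-1 cold libraries at -71.5, 31.6, -11.5 and -28.3. Libraries of one line thus stood far apart, uap1-1 replicates 1 and 2 the farthest. All 15 root markers had reads in all 8 libraries, with summed levels of 492 to 1010 CPM (counts relative to the TMM-scaled library size) in uap1-2 and 601 to 912 CPM in uap1-1, and all 22 listed genes of light harvesting and carbon fixation had reads in all 8 too. The 3 seed and embryo markers tested of 8 listed summed to 1.54 to 1.94 CPM in uap1-2 cold replicates 1 to 3 and to 1.82 to 2.89 CPM in uap1-1; in uap1-2 replicate 4 the 12S seed storage gene CRA1 alone had 13.8 CPM.

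No gene passed the test between the lines when the spread came from libraries taken as unrelated. In edgeR's quasi-likelihood fit of all 24 libraries, 0 of 21428 genes (0%) reached an adjusted p below 0.05, and the smallest adjusted p was 0.442. At an unadjusted p below 0.05 stood 2368 genes (11.1%), of which 1332 (6.22%) were higher and 1036 (4.83%) lower in uap1-2. The 4 values of uap1-2 lay above all 4 of uap1-1 for 510 genes (2.38%) and below all 4 for 463 (2.16%). DESeq2 called 4 genes on the same libraries and limma-voom called 0. Without uap1-1 cold replicate 2, edgeR called 6 genes, each higher in uap1-2; without any other of the 8 libraries it called 0.

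HBI1 (AT2G18300, chromosome 2, 7952404 to 7954785) encodes a basic helix-loop-helix factor that promotes cell elongation downstream of brassinosteroids. It had 18.5, 25.6, 18.9 and 15.68 CPM in the uap1-2 cold libraries, against 5.70, 12.3, 11.3 and 6.21 CPM in uap1-1 and 15.8, 13.7, 11.0 and 11.6 CPM in WT. Every uap1-2 library lay above every uap1-1 library, with WT between the means of the lines. Its log2 fold change (uap1-2 over uap1-1) was 1.14 ± 0.22 (SE), and it was the one riser among the DESeq2 calls and one of the 6 genes edgeR called without uap1-1 cold replicate 2. BEE2 (AT4G36540), a close relative of HBI1 that brassinosteroids induce, showed 10.2, 15.1, 9.95 and 9.47 CPM in uap1-2 and 1.86, 8.57, 4.69 and 3.32 CPM in uap1-1. WT held 7.18, 5.31, 5.94 and 8.40 CPM. The lines' libraries did not overlap for BEE2 either, and it too was among the 6. Another helix-loop-helix gene of that set, BHLH80 (AT1G35460), had 8.74, 9.33, 9.09 and 9.52 CPM in uap1-2 against 4.93, 8.11, 5.04 and 6.09 CPM in uap1-1. The other members of the set were ARR14, a response regulator of cytokinin signalling, RTNLB10, a reticulon-like protein, and NDHM, a subunit of the chloroplast NDH complex. The uap1-1 replicate 2 left out for this set had the highest uap1-1 level of HBI1, BEE2 and BHLH80. The uap1-2 library of the same number was kept, so the 6 calls depend on removing only 1 side of that pair.

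The 3 genes that DESeq2 called lower in uap1-2 were AT5G64270, FTSH10 and FRS8. AT5G64270 (chromosome 5, 25706608 to 25711355), which the reference annotation names as a splicing factor, had 130.3, 121.1, 136.5 and 144.8 CPM in uap1-2 and 176.5, 148.9, 197.5 and 212.5 CPM in uap1-1, with 138.3 to 173.1 CPM in WT. FRS8, of a family derived from transposases that includes the light signalling factor FAR1, averaged 18.8 ± 0.22 CPM in uap1-2 and 27.2 ± 2.67 CPM in uap1-1 (SD, n = 4 each), without overlap. FTSH10, a protease of the mitochondrial inner membrane, had 64.6 to 78.5 CPM in uap1-2 and 76.7 to 118.8 CPM in uap1-1, a slight overlap. AT5G64270 and FTSH10 overlap genes on the opposite strand, whose reads cannot be told apart because the sources used here do not state the strand setting. The same holds for ARR14, RTNLB10, SDN1, PAB7, AT5G40450, CBF3, COR15B, RAB18, PRP40A, KNOLLE, HSP101, LUX, CHS and PSAN.

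Cold libraries with the same replicate number deviated together in the 2 lines, and within such pairs many genes differed. With the replicate number as a block over the 8 libraries, a fit chosen after the data had been seen, edgeR called 1121 of 19959 genes (5.62%) higher and 1016 (5.09%) lower in uap1-2, 2137 (10.7%) in all. These calls rest on the spread of the 8 libraries alone: with the same cold pairs as blocks among all 24 libraries edgeR called 1 gene, HBI1, and with a block over all 24 libraries it called 0. Of the risers 246 moved at least 2-fold, and of the fallers 59. The direction was the same in 4 of 4 pairs for 1111 of the risers and 989 of the fallers. Over all 21428 genes, 18.7% were higher and 16.1% lower in 4 of 4 pairs. Without pair 1, 2, 3 or 4 the fit called 760, 3004, 898 and 582 genes. Rose and fell are used from here on for calls of this paired fit on 8 libraries. The shares of all genes, 5.62% higher and 5.09% lower, are the ones to set beside the counts of this fit in each list below. With library totals instead of TMM scaling, 2495 of 19959 genes were higher and 279 lower. List counts with library totals are to be read beside these. With 1 pair left out, 321 to 1627 genes were higher and 261 to 1377 lower, beside which the list counts of those fits stand.

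The genes that rose were poorer in G and C than those that fell. The median GC content of the coding sequence was 42.4% for the risers, 47.4% for the fallers and 44.4% for all genes of the paired fit, and the median coding length was 1605, 999 and 1164 bases. Across 20579 genes, Spearman's rho between the log2 fold change in cold and GC content was -0.50, and it was -0.53, -0.14, -0.26 and -0.46 in pairs 1 to 4. Under control conditions the same coefficient was 0.08. Genes are not independent replicates, so these coefficients describe the libraries. In single libraries set against the mean of the 8, rho with GC content was -0.01, -0.31, -0.31 and -0.36 in uap1-2 and 0.54, -0.33, 0.06 and 0.34 in uap1-1. With GC content and coding length fitted as smooth curves in each library together with the block, the coefficient was 0.02, and 868 of 19369 genes (4.48%) were higher and 927 (4.79%) lower, 9.27% in all. Of the 1121 risers 628 were called again, and of the 1016 fallers 454. The source of the trend was not tested, and each group of genes is therefore given before and after this correction. List counts after the correction are to be read beside 4.48% higher and 4.79% lower.

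Short coding stretches of 4 genes on TAIR10.1 are printed with each G and C in capitals. For each gene the 120 bases of the longest coding exon were taken whose GC content was nearest that of the whole coding sequence. The stretches thus illustrate the composition of these genes and are no test of the trend. They are from PICBP, the largest rise among called genes whose libraries did not overlap (chr5:1081997-1082116, minus strand, 41.7% GC), AT5G40450, the rise of lowest GC content among the 10 largest (chr5:16185822-16185941, minus strand, 40.0% GC), QQS, the largest fall among called genes whose libraries did not overlap (chr3:12349583-12349702, plus strand, 40.0% GC), and LHCB4.1, an antenna gene that fell (chr5:209110-209229, plus strand, 54.2% GC). The stretches of QQS, which fell, and of AT5G40450, which rose, both held 40.0% GC.
PICBP: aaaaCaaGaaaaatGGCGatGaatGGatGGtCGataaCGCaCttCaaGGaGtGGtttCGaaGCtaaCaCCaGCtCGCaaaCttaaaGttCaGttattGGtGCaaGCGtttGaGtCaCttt
AT5G40450: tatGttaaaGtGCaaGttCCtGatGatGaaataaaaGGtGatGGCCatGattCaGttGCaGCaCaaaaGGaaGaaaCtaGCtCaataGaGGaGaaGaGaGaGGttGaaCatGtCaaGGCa
QQS: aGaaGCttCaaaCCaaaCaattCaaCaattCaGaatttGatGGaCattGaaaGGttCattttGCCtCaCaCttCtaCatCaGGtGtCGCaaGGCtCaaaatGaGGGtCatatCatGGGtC
LHCB4.1: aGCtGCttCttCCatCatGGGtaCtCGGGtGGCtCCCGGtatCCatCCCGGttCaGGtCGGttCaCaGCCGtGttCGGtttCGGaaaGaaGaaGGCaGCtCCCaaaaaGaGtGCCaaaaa

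**Figure D1:**
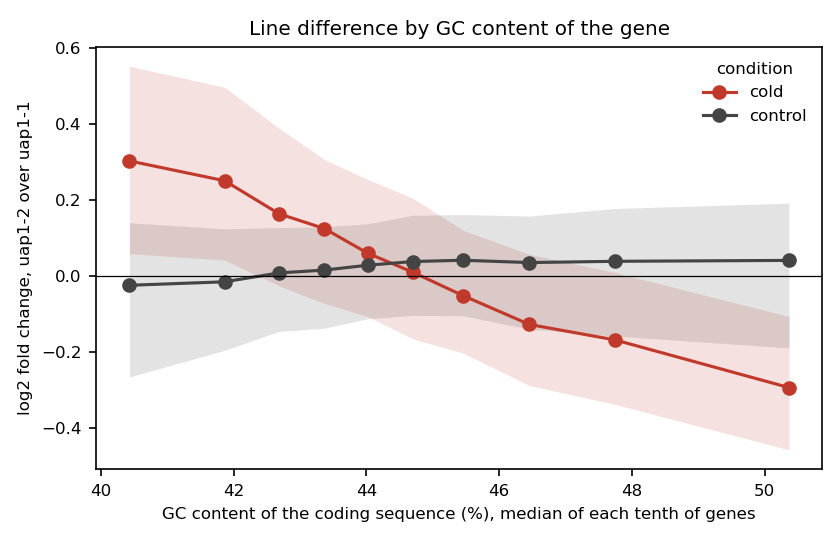
Median log2 fold change (uap1-2 over uap1-1) in 10 equal bins of the genes ordered by coding GC content, with the interquartile range shaded, in cold and in control. In cold the medians run from 0.30 in the bin of lowest GC content to -0.29 in the bin of highest; in control they lie between -0.03 and 0.04.

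The largest rises among genes whose libraries did not overlap were led by PICBP (AT5G04020), a calmodulin-binding protein. It had 2.90, 3.72, 2.98 and 3.99 CPM in uap1-2, against 0.51, 1.57, 0.64 and 0.43 CPM in uap1-1 and 1.89, 0.86, 0.69 and 7.59 CPM in WT. The WT libraries spanned both lines. In the paired fit its log2 fold change was 2.14 ± 0.34 (SE; adjusted p = 0.00653), and 1.79 after the correction (adjusted p = 0.00792). AT5G40450, a long gene, had 13.2, 29.8, 19.8 and 21.6 CPM in uap1-2 and 6.47, 10.6, 6.54 and 4.55 CPM in uap1-1, while WT ran from 4.13 to 77.0 CPM. The paired log2 fold change was 1.57 (adjusted p = 0.00493). SDN1, a nuclease that degrades small RNAs, showed 3.09, 5.87, 4.93 and 3.66 CPM in uap1-2 and 0.90, 3.02, 1.85 and 1.11 CPM in uap1-1. PAB7, a poly(A)-binding protein, showed 1.59 to 2.17 CPM in uap1-2, 0.45 to 1.201 CPM in uap1-1 and 0.48 to 0.94 CPM in WT, so that uap1-2 lay above both other groups. The remaining 6 were AT2G23530, which has a zinc finger domain, AT5G19490, a histone-fold protein, AT4G02660, a BEACH-domain protein, AT4G39190, AT1G55050 and the myosin gene VIIIB, with log2 fold changes of 1.42 to 1.71.

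The largest falls among genes whose libraries did not overlap were led by QQS (AT3G30720), an orphan gene that affects how carbon and nitrogen are divided between starch and protein. It had 0.37, 0.63, 0.23 and 0.24 CPM in uap1-2 and 1.15, 1.24, 0.81 and 1.54 CPM in uap1-1, with 0.57 to 1.72 CPM in WT. Its paired log2 fold change was -1.71 ± 0.43 (SE; adjusted p = 0.0292), called in 1 of the 4 fits that left out a pair, and it was -1.99 after the correction. NAC019 (AT1G52890), a transcription factor of jasmonate and abscisic acid responses, had 122.7, 64.1, 95.9 and 73.3 CPM in uap1-2 and 142.9, 172.5, 159.8 and 211.5 CPM in uap1-1. Every uap1-2 value was below every uap1-1 value, and the WT values of 130.6, 140.6, 124.1 and 64.9 CPM reached into the range of uap1-2 and stayed below that of uap1-1. Its paired log2 fold change of -0.99 ± 0.19 (SE; adjusted p = 0.0111) held in 4 of 4 fits that left out a pair. EDL3, an F-box protein of abscisic acid signalling, ran from 8.02 to 11.9 CPM in uap1-2 and from 12.6 to 27.4 CPM in uap1-1. ENODL5, an early nodulin-like protein, ran from 2.097 to 2.84 CPM in uap1-2 and from 4.81 to 5.30 CPM in uap1-1. CBF4 is described with the cold factors, and AT2G23270, AT2G47150, AT3G15534, AT5G45630 and AT3G48240 had log2 fold changes of -1.70 to -0.89.

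**Figure D2:**
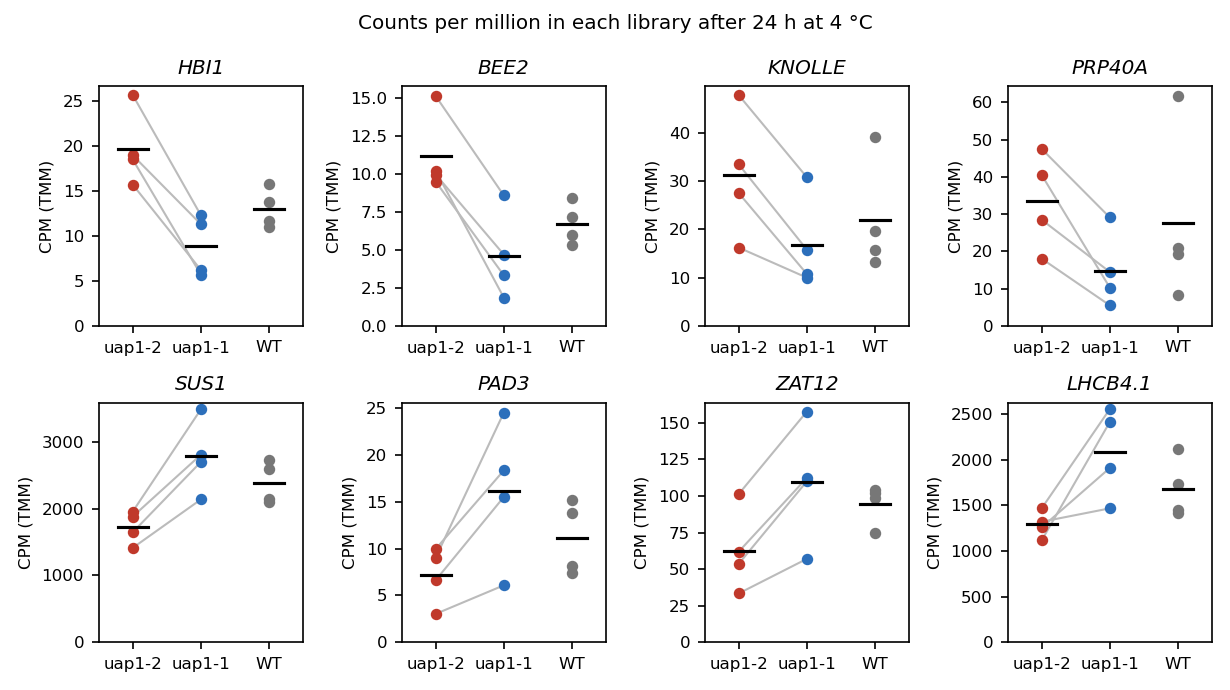
Levels in CPM (vertical axis, from 0) of 8 genes in the cold libraries of uap1-2, uap1-1 and WT. Each point is 1 library, horizontal bars are group means, and grey lines join the uap1-2 and uap1-1 libraries of the same replicate number. HBI1, BEE2, KNOLLE and PRP40A are higher and SUS1, PAD3, ZAT12 and LHCB4.1 lower in uap1-2 in 4 of 4 pairs. Over all genes 18.7% were higher and 16.1% lower in 4 of 4 pairs. The libraries of the lines overlap for KNOLLE, PRP40A, PAD3, ZAT12 and LHCB4.1.

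Of 14 tested early cold transcription factors, CBF genes included, 0 rose and 7 fell in uap1-2, and 0 of the COR genes passed the test in the same fit. All 14 fold changes were below 0; 3 fell after the correction, 3 with library-total scaling and 3 to 6 with 1 pair left out. The median log2 fold change was -0.45, against -0.003 over all genes of the paired fit. ZAT12, a zinc finger factor of cold and oxidative stress, had 101.3, 33.4, 61.97 and 53.7 CPM in uap1-2 and 157.6, 57.1, 112.3 and 110.0 CPM in uap1-1. The lines overlapped, and within each pair the uap1-2 library was lower, as it was for 989 of the 1016 fallers. The paired log2 fold change of ZAT12 was -0.84 ± 0.11 (SE, adjusted p = 0.00493) and -0.59 after the correction (adjusted p = 0.00713). ZAT10, its relative, had 53.3, 23.7, 39.7 and 41.9 CPM in uap1-2 and 90.2, 41.9, 63.0 and 88.5 CPM in uap1-1, a log2 fold change of -0.85 that was -0.51 after the correction (adjusted p = 0.0112). CZF1, a CCCH zinc finger protein, was the third that stayed called. ZAT6, CBF2, RAP2.1 and CBF4 fell in the paired fit and were not called after the correction.

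CBF2 had 71.0, 23.0, 43.3 and 39.5 CPM in uap1-2 and 74.3, 34.8, 64.7 and 63.5 CPM in uap1-1. CBF1 (3.70 to 7.43 CPM in uap1-2, 6.02 to 7.63 CPM in uap1-1) and CBF3 (79.5 to 140.8 CPM in uap1-2, 121.8 to 139.2 CPM in uap1-1) did not pass the test. CBF3 had log2 fold changes of -0.24 before and 0.05 after the correction. CBF4, the CBF gene known for its response to drought, held 0.70, 0.47, 0.63 and 0.48 CPM in uap1-2 against 1.41, 1.70, 0.81 and 3.14 CPM in uap1-1, and was called in 1 of the 4 fits that left out a pair.

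Among 17 COR genes, 0 rose and 0 fell in the paired fit. After the correction 2 rose, COR15B and KIN1, and 0 fell; KIN1 has a near-identical copy, KIN2, so reads may be split between them. COR15A, which protects the chloroplast envelope during freezing, had 10340, 9117, 8315 and 7992 CPM in uap1-2, 8678, 8409, 8170 and 8795 CPM in uap1-1 and 6204 to 9685 CPM in WT. The 3 groups overlapped, and the log2 fold change was 0.07 ± 0.22 (SE) without the block. RD29A, a cold- and drought-induced gene, had 12380, 12080, 12510 and 15020 CPM in uap1-2 and 10590, 13980, 15190 and 14870 CPM in uap1-1, with a log2 fold change of -0.07 ± 0.23 (SE) whose sign turned with library-total scaling.

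Abscisic acid (ABA) genes that passed the test went both ways: of 21, 2 rose (HAI1 and ABF1) and 4 fell (RAB18, NCED3, PP2CA and RD22). Over all genes 5.62% rose and 5.09% fell. With 1 pair left out 1 to 3 of the list rose and 2 to 6 fell. HAI1 (AT5G59220), a PP2C phosphatase that holds back ABA signalling, had 86.4, 71.7, 52.8 and 101.6 CPM in uap1-2 and 29.7, 37.2, 19.9 and 79.3 CPM in uap1-1. Its paired log2 fold change was 1.04 ± 0.17 (SE; adjusted p = 0.00743), and 1.38 after the correction. WT had 30.8 to 128.5 CPM, a wider range than that of either line. RAB18, a dehydrin, had 131.0, 151.4, 71.2 and 278.4 CPM in uap1-2 and 155.7, 389.4, 139.3 and 754.9 CPM in uap1-1, a paired log2 fold change of -1.03 (adjusted p = 0.00791). NCED3, the rate-limiting enzyme of ABA synthesis under drought, had 100.9, 80.2, 74.2 and 108.8 CPM in uap1-2 and 141.0, 121.0, 103.9 and 214.2 CPM in uap1-1. HAI1, ABF1, NCED3 and RAB18 stayed called after the correction.

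Of 22 listed photosynthetic genes, for antenna proteins and carbon fixation, 0 rose and 11 fell in uap1-2, and 10 of the 11 calls were lost with the composition corrected. All 22 fold changes were below 0, with a median of -0.57. After the correction 1 fell and the median was -0.26, and with library totals 5 fell; the median GC content of the list was 51.2%. LHCB4.1, the CP29 antenna of photosystem II, had 1469, 1321, 1259 and 1118 CPM in uap1-2 and 2555, 1468, 1910 and 2414 CPM in uap1-1, with 1415 to 2114 CPM in WT. Its log2 fold change was -0.68 in the paired fit (adjusted p = 0.0268) and -0.31 after the correction (adjusted p = 0.101). The gene that stayed called was RBCS2B, a small subunit of Rubisco, at 192.0 to 325.9 CPM in uap1-2 and 265.3 to 585.8 CPM in uap1-1; it shares 64.9% of its 31-base words with another gene. Summed over the 22 genes the level was 61690, 54940, 50830 and 41620 CPM in uap1-2 against 103600, 59110, 66220 and 82090 CPM in uap1-1. In whole seedlings, fewer green cells and less of these RNAs per cell cannot be told apart. With pairs left out in turn, between 0 and 21 of the 22 fell. The KEGG photosynthesis list, of 69 genes, had 0 that rose and 15 that fell, and after the correction 3 of 47 fell (PSAN, ATPC1 and FD3). With library totals 2 rose and 7 fell, and with 1 pair left out 0 to 32 fell.

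Few of the listed spliceosome factors and SR proteins were called, at shares near the 5.62% higher and 5.09% lower of all genes. The wider KEGG spliceosome list had a larger share of risers. Of 31 listed spliceosome and associated factors, 1 rose (PRP40A) and 2 fell (STA1 and U1C), or 3 and 0 with library totals, and of 20 SR proteins 0 rose and 1 fell (SR45a). After the correction 3 and 2 of the spliceosome list, and 1 and 0 of the SR list, were higher and lower. The SR list's median changed sign with the correction, from -0.14 to 0.17. PRP40A, related to a U1 snRNP-associated protein of yeast, had 18.04, 47.5, 28.5 and 40.5 CPM in uap1-2 and 5.51, 29.1, 14.5 and 10.3 CPM in uap1-1. Its paired log2 fold change was 1.295 ± 0.19 (SE; adjusted p = 0.00519) and 1.13 after the correction, but WT alone ran from 8.35 to 61.6 CPM. STA1, a protein of the U4/U6.U5 particle needed for cold tolerance, had 92.7 to 130.3 CPM in uap1-2 and 119.0 to 167.3 CPM in uap1-1; its log2 fold change was -0.45 (adjusted p = 0.0214) and -0.34 after the correction. In the wider KEGG spliceosome list of 195 genes 17 (AT2G16860 and PRP38 among them) rose and 7 fell, a larger share of risers than the 5.62% of all genes. After the correction 20 rose and 10 fell, beside 4.48% and 4.79% of all genes. With library totals 35 rose and 2 fell, and with 1 pair left out 6 to 21 rose and 1 to 15 fell. PRP38, of the tri-snRNP in yeast, had 46.3, 71.7, 52.2 and 51.1 CPM in uap1-2 and 24.1, 49.4, 34.3 and 30.1 CPM in uap1-1. Listed cold-related RNA-binding proteins had 0 calls of 16 in either fit, and their median was -0.22 before and 0.06 after the correction.

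The ribosome biogenesis genes that passed the test were higher in uap1-2 with few exceptions: of 95, 26 rose and 1 (RAN1) fell, 23 and 4 after the correction, and 37 and 0 with library totals. NOP5-1 (AT5G27120), a core protein of the particles that guide methylation of ribosomal RNA, had 91.9, 136.9, 126.8 and 124.9 CPM in uap1-2 and 44.1, 102.3, 77.5 and 57.1 CPM in uap1-1. Its paired log2 fold change was 0.81 ± 0.12 (SE; adjusted p = 0.00588), and it was called in 4 of 4 fits that left out a pair. AT2G21440 and AT3G12860, a NOP56-like protein, rose by 0.86 and 1.03 on the log2 scale. The count of risers ran from 10 to 28 with 1 pair left out. WT libraries spread widely here too, from 60.1 to 195.0 CPM for NOP5-1. Among 331 genes of the KEGG ribosome list 14 rose and 2 fell, a smaller share of risers than the 5.62% of all genes. After the correction 37 of 314 rose and 2 fell, a larger share of risers than the 4.48% of all genes. With library totals 46 rose and 0 fell, beside 2495 higher and 279 lower of 19959 genes under that scaling. With 1 pair left out 1 to 19 rose and 0 to 13 fell. RPL31C, a protein of the large subunit, was among the risers in both, by 0.65 and 0.81 on the log2 scale.

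The few listed cell cycle genes that passed the test were higher in uap1-2. Of 14, 2 rose (KNOLLE and CYCB1;1) and 0 fell, beside 5.62% and 5.09% of all genes. With 1 pair left out 1 to 2 rose, and after the correction 3 rose and 0 fell. KNOLLE (AT1G08560), the syntaxin that fuses vesicles at the growing cell plate, had 16.2, 47.8, 33.5 and 27.5 CPM in uap1-2 and 10.0, 30.8, 15.8 and 10.8 CPM in uap1-1. WT had 13.2 to 39.1 CPM, which reached into the range of each line. The libraries of the lines overlapped while each pair differed the same way, as for 1111 of the 1121 risers. The paired log2 fold change of KNOLLE was 0.92 ± 0.14 (SE, adjusted p = 0.00588) and 0.89 after the correction. CYCB1;1, a mitotic cyclin, had 7.25, 11.9, 10.13 and 7.60 CPM in uap1-2 and 5.45, 8.69, 6.02 and 4.43 CPM in uap1-1, and was called in 0 of the 4 fits that left out a pair. The 14 genes together summed to 127.9, 221.4, 197.2 and 152.2 CPM in uap1-2 and to 133.9, 169.6, 131.5 and 112.1 CPM in uap1-1, higher in 3 of 4 pairs. Kinesins, the motors that carry cargo along microtubules and build the spindle and cell plate, were picked after their values had been seen: of 46, 21 rose and 0 fell, and 16 and 0 after the correction. KIN12F had 6.64, 23.8, 14.7 and 14.3 CPM in uap1-2 and 2.63, 13.0, 5.38 and 4.31 CPM in uap1-1, and KIN4B rose by 1.49 on the log2 scale.

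Of 22 salicylic acid and immunity genes, 1 rose (WRKY18) and 2 fell (PAD3 and CBP60G), near the shares of all genes, and 1 and 1 with library totals; PR1 joined the risers after the correction. PAD3 (AT3G26830), the last enzyme of camalexin synthesis, had 9.96, 3.04, 9.04 and 6.64 CPM in uap1-2 and 18.3, 6.09, 24.5 and 15.5 CPM in uap1-1, a paired log2 fold change of -1.16 ± 0.15 (SE; adjusted p = 0.00493) that the correction left at -1.16. WRKY18, which tempers salicylic acid responses, had 18.1, 12.8, 14.5 and 16.3 CPM in uap1-2 and 8.33, 11.5, 10.4 and 8.67 CPM in uap1-1. Of 17 jasmonate genes 2 fell and stayed called: AOS, an enzyme of jasmonate synthesis, and JAZ1, a repressor of its signalling. Over all genes 5.09% fell. Glutathione transferases of the tau and phi classes, picked after their values had been seen, had 0 that rose and 7 of 36 that fell, 7 after the correction and 5 with library totals. GSTU3 had 1.59, 0.21, 0.77 and 0.77 CPM in uap1-2 and 12.8, 0.70, 25.7 and 1.48 CPM in uap1-1. Its log2 fold change of -3.15 ± 0.52 (SE; adjusted p = 0.00713) was carried mostly by the high levels of uap1-1 replicates 1 and 3, and it was -2.13 to -3.76 with 1 pair left out. GSTF8 averaged 559.7 ± 106.0 CPM in uap1-2 and 960.0 ± 260.3 CPM in uap1-1 (SD, n = 4 each). Families picked the same way went both ways: of 56 WRKY factors 2 rose and 1 fell, 3 and 1 after the correction, and 4 and 0 with library totals, and of 165 cytochromes P450 5 rose and 11 fell, 4 and 6 after the correction, and 14 and 5 with library totals. Of 54 NAC factors, also picked afterwards, 1 rose and 6 fell, 0 and 6 after the correction, and 2 and 3 with library totals.

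Sugar metabolism genes that passed the test were lower in uap1-2: of 15, 0 rose and 5 fell (SUS1, RAFS5, BAM1, GOLS2 and GOLS1), beside 5.62% and 5.09% of all genes. After the correction SUS1, RAFS5, SWEET4 and BAM1 were called. With library totals 1 rose and 3 fell, and with 1 pair left out 1 to 5 fell. SUS1 (AT5G20830), a sucrose synthase that cleaves sucrose, had 1880, 1412, 1645 and 1954 CPM in uap1-2 against 2803, 2135, 2695 and 3480 CPM in uap1-1 and 2091 to 2730 CPM in WT. Every uap1-2 library was below every library of the other groups, and the paired log2 fold change was -0.70 ± 0.13 (SE; adjusted p = 0.0121), and -0.70 after the correction. It missed the threshold in 1 of the 4 fits that left out a pair. RAFS5 and the GOLS genes make raffinose and its precursor galactinol, sugars that build up in the cold. GOLS2 had 51.2, 40.1, 38.6 and 79.7 CPM in uap1-2 and 55.9, 83.0, 57.5 and 113.7 CPM in uap1-1.

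Heat shock genes showed 0 that rose and 3 of 18 that fell, HSP101, HSP70 and HSP90.1, and the same 3 were called after the correction. Over all genes 5.62% rose and 5.09% fell, and these shares stand beside the flavonoid and clock counts here too. HSP101, a chaperone that dissolves protein aggregates, had 75.2, 35.9, 63.8 and 55.3 CPM in uap1-2, against 100.7, 69.9, 87.3 and 87.4 CPM in uap1-1 and 113.0, 112.0, 56.6 and 178.4 CPM in WT. Of 28 flavonoid genes 1 (EGL3) rose and 6 fell, among them CHS, which makes the first compound of the pathway, and its activator MYB12; after the correction MYB12 and MYB111 fell and 0 rose. Of 20 clock genes 2 rose (PRR3 and PRR9) and 3 fell (ZTL, LUX and RVE6), with PRR3, RVE6 and GI called after the correction. Proteasome genes (0 rose and 8 of 65 fell) and oxidative phosphorylation genes (1 rose and 8 of 131 fell) depended on scaling: with library totals, which put the median of all genes at 0.174 instead of -0.003, 4 and 2 rose and 0 and 0 fell. Under the same scaling 1 heat shock gene rose and 1 fell, 2 flavonoid genes rose and 2 fell, and 3 clock genes rose and 0 fell. With 1 pair left out 1 to 3 heat shock, 1 to 10 flavonoid and 0 to 4 clock genes fell. In the list of growth, auxin and gibberellin genes 0 of 20 were called, and the lists of root, floral and seed markers had 0 calls of 15, 6 and 2 in the paired fit. Of 10 reference genes 1 fell, UBQ10, at 1110 ± 194.5 CPM in uap1-2 and 1751 ± 469.5 CPM in uap1-1 (SD, n = 4 each).

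**Figure D3:**
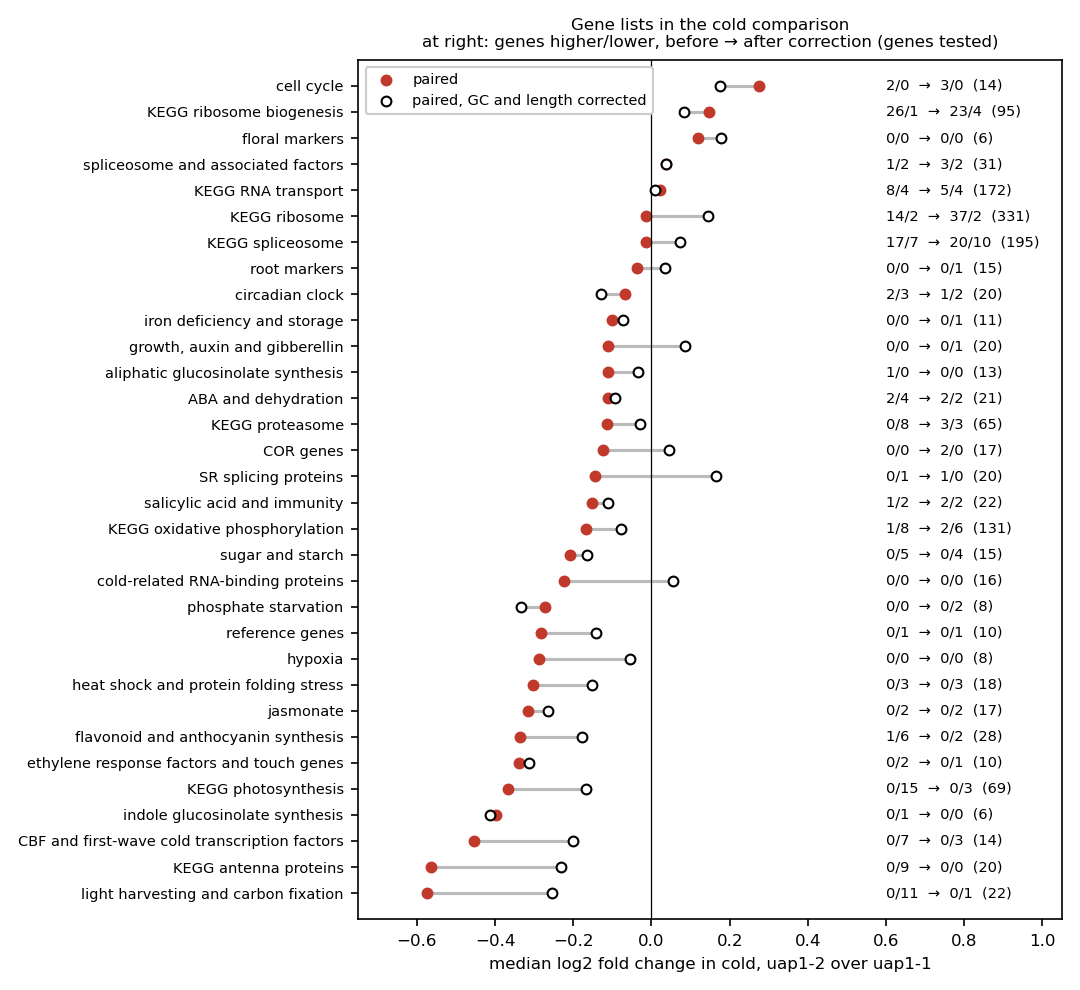
Median log2 fold change (uap1-2 over uap1-1) in cold of each gene list, in the paired fit (filled points) and with GC content and coding length corrected as well (open points), with the genes called higher and lower and the number tested beside each list. The light harvesting list moves from -0.57 to -0.26 and the CBF list from -0.45 to -0.20 with the correction, while the SR list moves from -0.14 to 0.17.

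The line differences in cold and under control conditions were almost uncorrelated across genes. Over 21428 genes Pearson's r between them was 0.04 and Spearman's rho 0.02. Without overlap in both conditions, 8 genes were higher and 11 lower, while 29 did not overlap in opposite directions. The shares without overlap were 2.38% higher and 2.16% lower in cold, and 1.97% and 3.03% in control. With 0 genes called in cold and 2 in control, few of these fold changes stood out from the spread of the libraries. The coefficients and counts therefore cannot tell whether the line difference depends on the condition. In control 2 genes (0.00933%) were called, HAI1 and UGT78D4, and 1354 (6.32%) stood at an unadjusted p below 0.05. HAI1 had 18.17, 10.8, 16.2 and 15.4 CPM in uap1-2 control libraries and 3.10, 1.67, 2.42 and 3.25 CPM in uap1-1 control libraries, with 17.38 to 36.3 CPM in WT. Its log2 fold change was 2.53 ± 0.42 in control (SE; adjusted p = 0.0441) and 0.91 ± 0.38 in cold without the block, and the difference between them was not called (-1.62, adjusted p = 0.640). Its call in control was lost with library totals, upper-quartile scaling, limma-voom or the replicate block, and without any single control library of either line other than uap1-2 replicate 2. Averaged over both conditions it was 1.72 (adjusted p = 0.0366).

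UGT78D4 (AT5G17040), a UDP-glycosyltransferase beside the flavonoid enzymes UGT78D2 and UGT78D3, was the one gene whose line difference itself differed between cold and control (1 of 21428, 0.00467%). In control it had 0.58, 0.46, 0.42 and 0.44 CPM in uap1-2 and 2.42, 1.48, 1.51 and 1.29 CPM in uap1-1, with 0.62 to 0.85 CPM in WT. In cold it had 42.1, 34.8, 31.3 and 43.4 CPM in uap1-2 and 45.9, 38.1, 48.8 and 42.3 CPM in uap1-1, with 42.0 to 47.5 CPM in WT. The log2 fold change was -1.81 ± 0.20 (SE) in control and -0.21 ± 0.15 (SE) in cold, a difference of 1.60 (adjusted p = 0.0392). The call was lost with DESeq2 size factors, no filter, limma-voom, limma on FPKM, the replicate block or the 16 libraries of both lines alone, and without any single one of those 16 other than uap1-2 cold replicate 3, uap1-2 control replicate 1 or uap1-1 control replicate 4. SUS1 was lower in uap1-2 by similar sizes in both, with 29.8 to 54.3 CPM in uap1-2 control libraries and 63.3 to 86.8 CPM in uap1-1 control libraries. HBI1 had 89.3, 89.9, 95.2 and 105.0 CPM in uap1-2 control libraries and 96.3, 66.9, 92.0 and 94.4 CPM in uap1-1 control libraries, which overlapped.

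**Figure D4:**
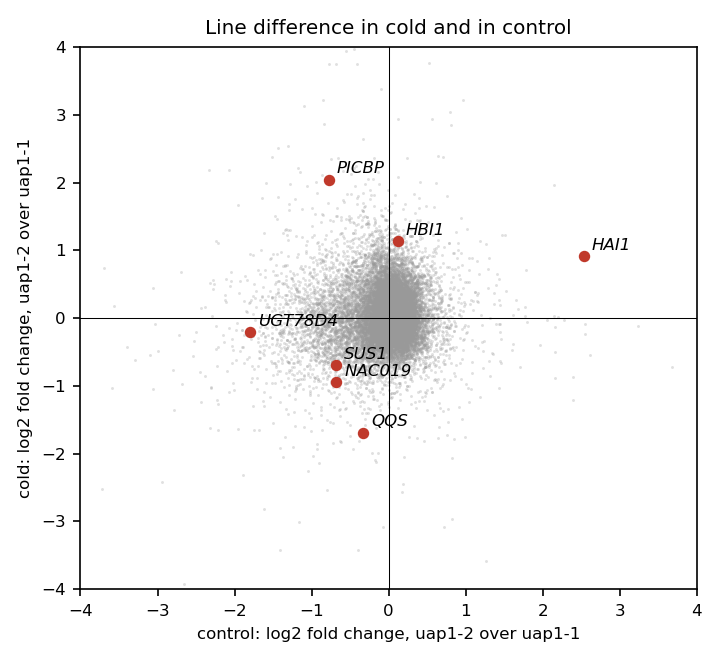
Log2 fold change between the lines (uap1-2 over uap1-1) in cold, against the same in control, for 21421 genes, with 7 more beyond 4 on an axis and not drawn. Named genes are marked in red; HAI1 is above 0 in both conditions, UGT78D4 lies far below 0 in control and near 0 in cold, and SUS1 is below 0 in both.

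Neither line differed from WT by an adjusted p below 0.05 in the cold. The smallest adjusted p over 21428 genes was 0.928 for uap1-2 and 0.969 for uap1-1, with 1014 genes (4.73%) and 580 genes (2.71%) at an unadjusted p below 0.05; these comparisons share the WT libraries. For HBI1 the log2 fold change against WT was 0.60 ± 0.21 in uap1-2 and -0.55 ± 0.22 in uap1-1 (SE). SUS1 had -0.47 ± 0.20 in uap1-2 and 0.22 ± 0.20 in uap1-1 (SE), and RAB18 had -0.001 ± 0.57 in uap1-2 and 1.19 ± 0.57 in uap1-1 (SE). For HBI1 and SUS1 the WT mean lay between the lines, and for RAB18 it lay near that of uap1-2.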

How the data were processed

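For 24 libraries the authors deposited unnormalized read counts and FPKM values of 32833 genes. The tools named, without roles, per the submitters' processing notes were HISAT2 2.2.1, HTSeq 0.6.1, StringTie 1.3.3b, DESeq2 1.26.0, cutadapt 1.9.1, SAMtools 0.1.19, FastQC 0.10.1 and bcl2fastq 2.20.0.422, with the build TAIR10. Per the labels' protocols the RNA was selected with oligo(dT) and copied with random hexamers. The deposited counts were tested with edgeR 4.0.16 (R 4.3.3): genes kept by filterByExpr (minimum count 10, total 15), TMM scaling, 6 group means, quasi-likelihood test and Benjamini-Hochberg adjustment, called below 0.05. Levels are TMM-scaled CPM; SE is the log2 fold change divided by the square root of F. The deposited FPKM values, equal to counts per length and library total, served only for 1 alternative, with limma 3.58.1 on log2(FPKM + 1) or log2(FPKM + 0.1); limma-voom and DESeq2 1.42.0 were further alternatives.

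The labels give replicate numbers but no shared batch. Pairing was checked by correlating, across genes, the deviations of same-numbered libraries from their group means: r was 0.501, 0.536, 0.233 and 0.313 in cold, each the highest for its library, so the cold numbers were used as pairs; in control it was 0.145, 0.126, -0.302 and 0.259, and they were not. The paired fit used the 8 cold libraries with the number as a block; the composition correction added splines (5 degrees of freedom) of coding GC content and log coding length per library, over the 97.0% of genes with a coding sequence. Coding sequences came from RefSeq TAIR10.1, where 32548 loci of the table were found. The fits were also run on simulated data, in which the pairs were built in and their effects drawn independently for each gene. Such data check the code and cannot show how many of the paired calls here are false.

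The comparison, the gene lists and the paired fits were chosen with earlier results of these data known; KEGG lists are those of the deposited annotation. Named genes are the 10 largest rises and falls among called genes without overlap and with a mean of at least 1 CPM in either line, up to 4 called genes per list, and CBF1, CBF2, CBF3, COR15A and RD29A; the genes called by DESeq2 or without 1 library, and list members named without values, were added. P-values measure the spread between these libraries. At 19289385 or more reads a library, counting error alone is small only for genes with many reads. It is larger for genes that lay below 1 CPM in some libraries, QQS, GSTU3 and CBF4 among them.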

Additional observations from a re-analysis of the deposited data

Results flagged for a closer look

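In groups of 4 libraries, 1 library stood far from the other 3 by Dixon's criterion in 11 of 286 groups looked at over the 143 named genes, where chance flags about 1 in 20. Among the uap1-2 cold libraries, replicate 2 was high for RTNLB10 (26.16 CPM, the others 17.16 to 17.89), AT2G23530 (2.044 CPM), VIIIB (4.665 CPM), BEE2 (15.1 CPM, the others 9.474 to 10.19) and RPOB (54.88 CPM, the others 27.07 to 29.88). Replicate 1 of uap1-2 was high for CYP86A2 (78.3 CPM) and PSAJ (18.7 CPM), and replicate 4 for CRA1 (13.75 CPM, the others 0.226 to 0.629) and RD29A (15020 CPM, the others 12080 to 12510). Among the uap1-1 cold libraries, replicate 2 was low for RPN6 (92.77 CPM, the others 119.3 to 124.8) and high for the plastid gene RPL16 (7.7 CPM, the others 1.474 to 2.2).

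The line difference of UGT78D4 changed with the condition: the log2 fold change in cold minus that in control was 1.598 by the interaction term.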

How the results depend on the processing

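In cold without a block, edgeR called 0 genes under each scaling and filter tried, limma-voom and limma on FPKM called 0, DESeq2 called 4, and leaving out 1 library gave 0 to 6. The replicate block on the 8 cold libraries called 2137 genes, a block for the cold pairs among 24 libraries called 1 (HBI1), and a block over all 24 called 0. The paired fit's 2137 was 0 without the block and 1127 with A content corrected too; with library totals it was 2774, 89.9% of them higher against 1121 of 2137, the median of all genes being 0.174, and with limma-voom 1857 (778 higher, 1079 lower). Without pairs 1 to 4 in turn it was 760, 3004, 898 and 582, and the 1795 calls with composition corrected were 1048, 1866, 812 and 385. In control, 2 calls became 1 with library totals, upper quartile, the replicate block or the 8 control libraries alone, 23 with DESeq2 (2 higher, 21 lower), 0 with limma-voom, 39 with log2(FPKM + 1) (3 higher, 36 lower), and 1 to 2 without 1 library. The 1 call of the cold-against-control difference was 0 with DESeq2 size factors, no filter, limma-voom, either FPKM pseudocount, the replicate block or 16 libraries, 2 with DESeq2, and 0 to 1 without 1 library. Signs turned for RD29A (0.0835 with library totals, 0.0989 with log2(FPKM + 1) and 0.0989 with log2(FPKM + 0.1)), COR15A (-0.0062 without uap1-2 cold replicate 1; -0.0062 to 0.1211 over single libraries left out), and CBF3 (0.0436) and UGT78D4 (0.0132) with GC content and length corrected and no replicate block. The causes were not tested.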
